A study of Mus musculus with 8 samples.

Results

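The subject is the miR-455 hairpin, whose arms mmu-miR-455-5p and mmu-miR-455-3p were taken by name from the deposited table, giving 2 of its 1966 mature miRNA names. They were measured by microRNA sequencing (miRNA-Seq) in primary articular chondrocytes, the cells of joint cartilage, isolated from the femoral heads of wild-type mice that were 3 weeks old according to the methods of the study. Cells received vehicle or 1 ng/ml of the inflammatory cytokine interleukin-1β (IL-1β) for 24 h, with 4 libraries per group numbered 1 to 4. No genetic alteration was described for either group, and neither the labels nor the methods stated whether the replicates came from separate mice or cultures, so that p-values measure the spread between these libraries, which may be technical.

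A miRNA hairpin is cut into a short duplex, and one strand, from the 5′ side (5p) or the 3′ side (3p), is loaded into an Argonaute protein and guides it to mRNAs that match its seed, bases 2 to 8. miR-455 lies within Col27a1, which encodes a fibrillar collagen of cartilage, and like miR-140 it is known as a miRNA of the chondrocyte lineage linked to SOX9, the transcription factor that specifies cartilage. Known targets of miR-455-3p include receptors and SMAD proteins of TGF-β family signaling, and both arms are known to repress Epas1, which encodes the hypoxia-inducible factor HIF-2α.

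The mature sequences below are from RefSeq (GRCm38.p6), printed 5′ to 3′ with the seed in capitals. They are shown because the arms are distinct regulators with different seeds. The third sequence is the other mouse miRNA in that table with the seed of an arm.

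mmu-miR-455-5p: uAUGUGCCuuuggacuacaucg
mmu-miR-455-3p: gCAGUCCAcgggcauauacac
mmu-miR-5129-3p: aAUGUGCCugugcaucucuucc

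The seed of miR-455-5p was shared with miR-5129-3p (chromosome 2, 45023110 to 45023131, minus strand), which had 1 count in 1 of the 8 libraries and was not tested. No other entry of the RefSeq table carried the seed of miR-455-3p. In these cells nearly all counts with either seed were therefore those of miR-455 itself, among names with a RefSeq sequence. Of the 564 tested names 87.1% matched that table, and the others were not searched for the seeds.

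The hairpin gene Mir455 spans 82 bases on the plus strand of chromosome 4 (63256851 to 63256932, GRCm38), with the 5p arm at 63256867 to 63256888 and the 3p arm at 63256904 to 63256924, 15 bases apart. It lies on the coding strand in intron 10 of the Col27a1-201 transcript, an intron of 2318 bases (63254742 to 63257059) in a transcript of 61 exons. The next exon begins 127 bases downstream of the hairpin. The nearest other miRNA of the RefSeq table on this chromosome was 4815806 bases away, so miR-455 has no clustered neighbor in that table. Both names had a single locus, and the counts of neither arm are divided over paralogs.

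When the arms were paired in silico (RNAduplex), 16 base pairs formed, 2 of them between G and U, with a predicted energy of -22.3 kcal/mol. All of the first 4 bases of the 5p arm were paired and 0 of these pairs were between G and C, whereas 3 of the first 4 bases of the 3p arm were paired, 2 of them between G and C. The stability of the ends was not computed. Argonaute proteins are known to favor a strand that begins with U or A, and the 5p arm starts with U while the 3p arm starts with G. Of 123 hairpins with both arms tested and both sequences in RefSeq, the more abundant arm started with U in 53, with A in 36, with C in 19 and with G in 15 (12.2%). The 3p arm of miR-455 was among these 15. This is a count of letters and of sequencing reads, and what sets the balance was not tested.

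Library totals ranged from 616475 to 1568367 counts, so that 1 count was worth 0.625 to 1.5996 normalized CPM (counts scaled to a common library total after TMM, the trimmed mean of M values). The cartilage identity of the cells was checked on miR-140, whose 3p arm took 12.0% to 16.2% of all counts and ranked first or second in each of the 8 libraries. Of the markers of other cells, the 6 muscle miRNAs in the table had 0 counts, the 2 endothelial ones 8 counts in all and the 7 epithelial ones 24. The haematopoietic miRNAs took 0.00441% to 0.00638% of counts with vehicle and 0.00260% to 0.00471% with IL-1β, with 4 of 6 at 0, including miR-142a-3p and miR-223-3p. The liver miRNAs took 0.00521% to 0.00714% and 0.00714% to 0.0109%, with miR-122-5p at 0, and miR-143-3p and miR-145a-5p, typical of smooth muscle and mesenchymal cells, took together 0.0289% to 0.0322% and 0.0277% to 0.0361%. The part of these small shares in the results was not tested. IL-1β replicate 4 stood apart: over the 195 miRNAs averaging 50 counts or more, the SD of its log2 deviations from the other 3 libraries of its group was 0.40, against 0.15 to 0.23 for the other 7 libraries. Results are therefore also given without it.

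Nearly all miR-455 counts in these chondrocytes were of the 3p arm. Vehicle replicates 1 to 4 held 5585, 5056, 5080 and 5053 normalized CPM of it, from 5267, 7576, 8132 and 3244 counts. It ranked 29th of 564 tested miRNAs by mean abundance, just below miR-320-3p (4904 normalized CPM over the 8 libraries, against 4629 for miR-455-3p) and just above miR-574-3p (4159). In single libraries its place ranged from 24 to 35. It took 0.5003% to 0.566% of counts with vehicle and 0.293% to 0.495% with IL-1β.

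IL-1β replicates 1 to 4 held 4508, 4779, 3831 and 3143 normalized CPM of miR-455-3p, from 2818, 5670, 2622 and 2508 counts. All 4 IL-1β libraries lay below all 4 vehicle libraries, and replicate 4 was the lowest. Such a separation in the lower direction was seen for 17 of 564 miRNAs tested (3.01%). The mean was 5194 ± 261 normalized CPM in vehicle libraries and 4065 ± 732 in treated ones (SD, n = 4), a change of -21.7%. In bulk samples such as these, fewer cells holding the miRNA and less of it per cell cannot be told apart.

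With vehicle the spread of miR-455-3p rested on a single library, and with IL-1β it did so only in part. The coefficient of variation of miR-455-3p was 5.03% with vehicle and 18.0% with IL-1β, where counting error alone would give 1.37% and 1.81%. The vehicle libraries were close together, with 3 of the 4 between 5053 and 5080 normalized CPM, whereas the IL-1β libraries were spread from just under this level to 3143. Without vehicle replicate 1 the coefficient of variation of the vehicle group was 0.296%, and without IL-1β replicate 4 that of the treated group was 11.2%. A difference in spread was not tested.

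In the edgeR quasi-likelihood test, the log2 fold change of miR-455-3p was -0.35 (SE 0.103, 95% interval -0.57 to -0.14), with an unadjusted p of 0.00221, the 18th lowest of the 564. After Benjamini-Hochberg adjustment over all 564 miRNAs the edgeR p was 0.0691, so miR-455-3p was not called at the thresholds of an adjusted p under 0.05 and an absolute log2 fold change over 0.3. At these thresholds 11 miRNAs (1.95%) were called, of which 3 (0.532%) were lower with IL-1β. The number called was 6 without vehicle replicate 4, 7 without vehicle replicate 2 or IL-1β replicate 3, 19 without IL-1β replicate 4 and 28 with 1 factor of unwanted variation. Without IL-1β replicate 4 the mean of the treated group was 4373 ± 488 normalized CPM (SD, n = 3) and miR-455-3p differed by -0.24 on the log2 scale (SE 0.0680), where the edgeR adjusted p was 0.0297. This p was under 0.05, but the size of the change was then under 0.3, so that it was not called. Without IL-1β replicate 2, the treated library nearest to the vehicle level, the log2 fold change was -0.47 (SE 0.108, edgeR adjusted p = 0.0150) and miR-455-3p was called. It was also called with no filter on low counts (-0.36, edgeR adjusted p = 0.00175) and with 1 factor of unwanted variation in the edgeR model (-0.37, adjusted p = 3.27e-05), a kind of correction that the methods of the study describe. A term for the replicate number also gave a call (-0.37, edgeR adjusted p = 0.0155), although the labels do not say that equal numbers pair libraries.

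**Figure D1:**
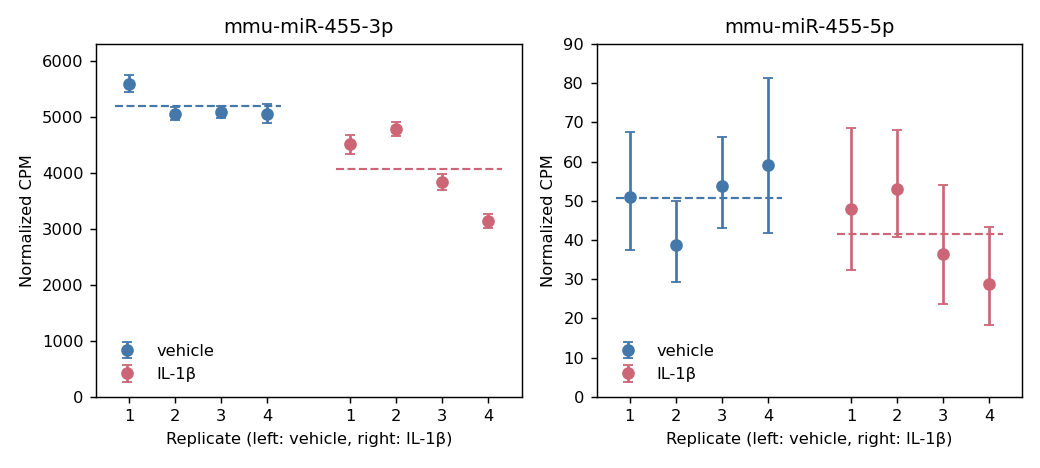
Normalized CPM (vertical axes, from 0) of miR-455-3p (left) and miR-455-5p (right) in each library, by replicate number. Points are libraries, bars are exact 95% Poisson intervals that cover counting error only, and dashed lines are group means: all 4 IL-1β points of miR-455-3p, between 3143 and 4779, lie below the vehicle points, between 5053 and 5585, whereas the groups overlap for miR-455-5p.

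The 5p arm was far scarcer. In vehicle replicates 1 to 4 it was at 50.9, 38.7, 53.7 and 59.2 normalized CPM, from 48, 58, 86 and 38 counts. In IL-1β replicates 1 to 4 it was at 48.0, 53.1, 36.5 and 28.8 normalized CPM, from 30, 63, 25 and 23 counts. The groups overlapped: IL-1β replicate 2 exceeded vehicle replicates 1 and 2, and the lowest library was IL-1β replicate 4, as for the 3p arm. By mean abundance the 5p arm ranked at place 200 of 564, between miR-221-5p and miR-1964-3p, at 46.8 and 45.9 normalized CPM.

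The mean of miR-455-5p was 50.6 ± 8.66 normalized CPM in vehicle libraries and 41.6 ± 11.0 in treated ones (SD, n = 4), a change of -17.8%. With so few counts, counting error alone would give a coefficient of variation of 13.8% and 18.2%, against the 17.1% and 26.4% observed. The log2 fold change was -0.23 (SE 0.196, 95% interval -0.63 to 0.18, edgeR adjusted p = 0.753), and miR-455-5p was not called. The interval holds a change as large as that of the 3p arm as well as no change. Without IL-1β replicate 4 the log2 fold change was -0.07 (edgeR adjusted p = 0.942).

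**Figure D2:**
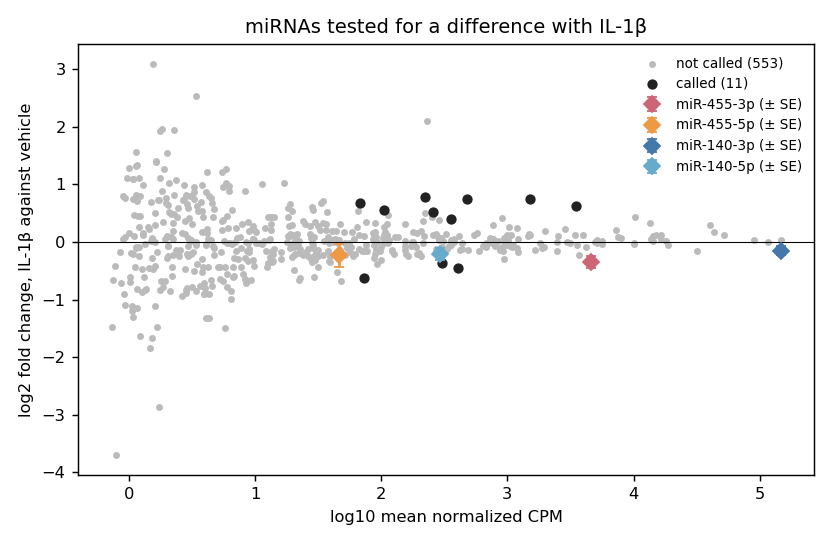
Log2 fold change of IL-1β against vehicle (vertical axis) against log10 of the mean normalized CPM (horizontal axis) for the 564 tested miRNAs. Black points are the 11 miRNAs called and diamonds with SE bars are the arms of miR-455 and miR-140: miR-455-3p, at -0.35, lies lowest of the 29 miRNAs with at least its mean count, and miR-455-5p, at -0.23, lies in the wider cloud of scarcer ones.

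Relative to other abundant miRNAs, the value of miR-455-3p stood at the edge. Of the 29 miRNAs with a mean count at least as high as its own, itself included, it had the lowest log2 fold change, with the next lowest being -0.15 (miR-140-3p) and the highest 0.43. By the edgeR test 0 of the 29 were called, beside 1.95% of all 564. miR-455-3p was also without IL-1β replicate 4 the lowest of these 29, with -0.11 as the next value. In that fit 0 of the 29 were called, beside 3.54% of the 537 miRNAs tested. This comparison was made after the values were seen and has no test.

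The balance between the arms was then examined, because each library gives a ratio that does not depend on scaling between libraries. Over all 8 libraries there were 37837 counts of the 3p arm and 371 of the 5p arm, a ratio of 102 (107 when each is divided by its length, 21 and 22 nt). In vehicle replicates 1 to 4 there were 110, 131, 94.6 and 85.4 counts of 3p for each count of 5p. In IL-1β replicates 1 to 4 there were 93.9, 90, 105 and 109. The treated libraries all fell within the range of the vehicle libraries.

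Expressed as a share of both arms, the 5p arm made up 0.967% ± 0.173 of the counts in vehicle libraries and 1.00% ± 0.0895 in treated ones (SD, n = 4). The exact 95% binomial intervals of single libraries, which cover counting error only, were wide, from 0.577% to 0.981% in vehicle replicate 2 and from 0.821% to 1.59% in vehicle replicate 4, and all 8 overlapped. The mean log2 ratio of 3p to 5p counts was 6.70 ± 0.27 in vehicle libraries and 6.63 ± 0.13 in treated ones (SD, n = 4). The difference of -0.06 did not exceed the spread of the libraries (two-sided exact permutation test over 70 arrangements, p = 0.714, the same after Benjamini-Hochberg adjustment over 2 tests). Without vehicle replicate 2, the library with the fewest 5p counts per 3p count, the difference was 0.05 in the other direction (exact permutation p = 0.686). Without IL-1β replicate 4 it was -0.11 (exact permutation p = 0.6).

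**Figure D3:**
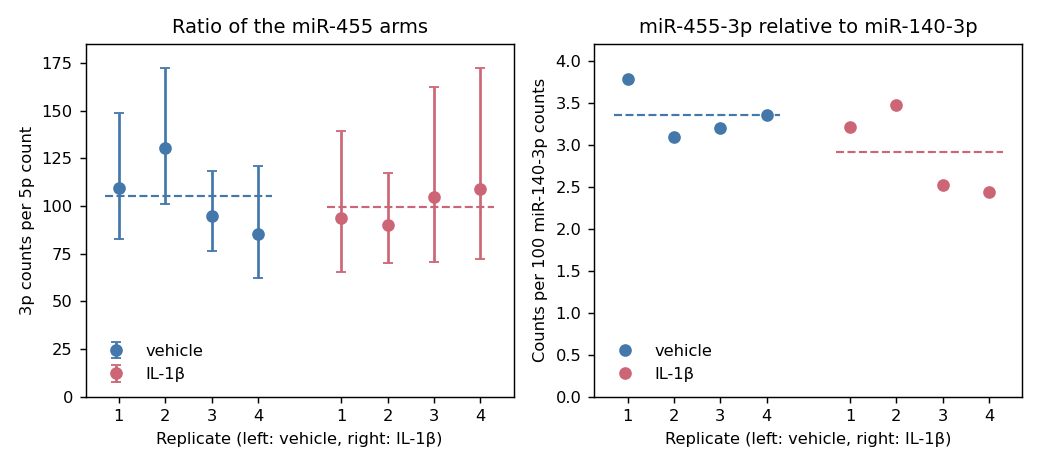
Counts of miR-455-3p per count of miR-455-5p (left, with exact 95% binomial intervals) and per 100 counts of miR-140-3p (right) in each library, by replicate number. Dashed lines are group means: the ratio of the arms ranges from 85.4 to 131 with vehicle and from 90 to 109 with IL-1β, and the ratio to miR-140-3p overlaps between the groups although IL-1β replicates 3 and 4 lie below all vehicle libraries.

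The same question was asked of all 142 hairpins with both arms tested, in an edgeR model with a term for each library and for arm. For miR-455 the log2 ratio of 3p to 5p differed by -0.10 (SE 0.225, 95% interval -0.54 to 0.34, edgeR adjusted p = 0.924), and the balance was not called. Without IL-1β replicate 4 the value was -0.15 (edgeR adjusted p = 0.860), and without vehicle replicate 2 its direction turned, at 0.0139 (edgeR adjusted p = 0.973). Of the 142 hairpins 2 (1.41%) were called, namely miR-210 (-0.67, edgeR adjusted p = 0.00269) and miR-877 (0.69, edgeR adjusted p = 0.0142).

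With a mean ratio of 100.1 on the log scale, miR-455 was the 14th most skewed toward the 3p arm of the 142 hairpins, after miR-3102 (ratio 110) and before miR-434 (65.0). The 3p arm was the more abundant one in 68 hairpins and the 5p arm in 74. A ratio of over 50 in favor of the 3p arm was seen in 20 hairpins.

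**Figure D4:**
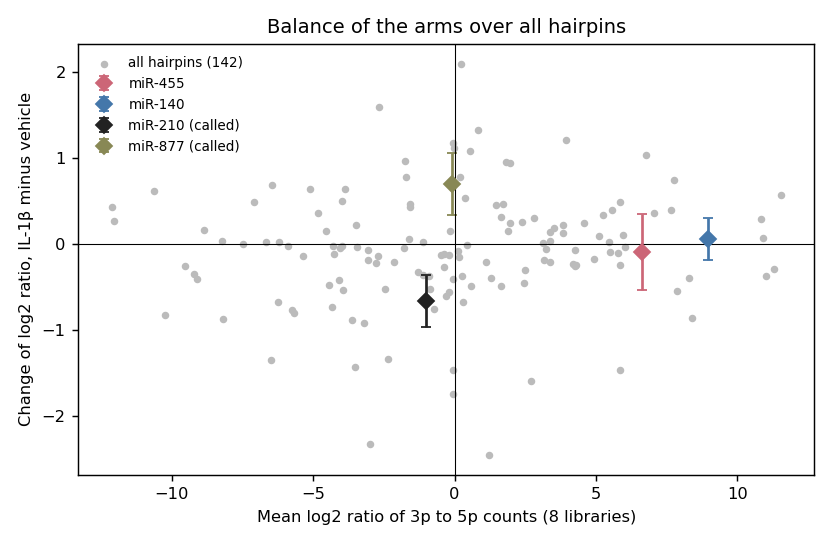
Change of the log2 ratio of 3p to 5p counts with IL-1β (vertical axis) against its mean over the 8 libraries (horizontal axis) for 142 hairpins, with 95% intervals for the named ones. miR-455 lies far to the 3p side, at 6.65, with a change of -0.10 whose interval includes 0, whereas the intervals of miR-210 and miR-877 do not.

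miR-140, the hallmark miRNA of cartilage, was the closest counterpart. It is also skewed toward the 3p arm, with 468 to 509 counts of 3p per count of 5p in vehicle libraries and 460 to 645 in IL-1β libraries, above the ratio of miR-455 in each of the 8 libraries. Its 3p arm was at 155137 ± 7341 normalized CPM in vehicle libraries and 139691 ± 9302 in treated ones (SD, n = 4). The log2 fold change was -0.15, with an edgeR adjusted p of 0.546. Its 5p arm was at 315 ± 19.96 with vehicle and 272 ± 29.6 with IL-1β, with a log2 fold change of -0.21 and an edgeR adjusted p of 0.440. Neither arm of miR-140 was called, nor without IL-1β replicate 4 (-0.11 for 3p and -0.19 for 5p, edgeR adjusted p = 0.284 and 0.410).

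Whether miR-455-3p differed from miR-140-3p in its response was tested on their ratio within each library. In vehicle replicates 1 to 4 there were 3.78, 3.09, 3.20 and 3.36 counts of miR-455-3p per 100 of miR-140-3p. In IL-1β replicates 1 to 4 there were 3.22, 3.47, 2.53 and 2.43. IL-1β replicates 1 and 2 lay among the vehicle libraries and replicates 3 and 4 below them. The mean log2 ratio differed by -0.22 between the groups, which did not exceed the spread of the libraries (two-sided exact permutation test, p = 0.257, and 0.514 after Benjamini-Hochberg adjustment over 2 tests). Without IL-1β replicate 4 the difference was -0.14 (exact permutation p = 0.457). A larger response of miR-455-3p than of miR-140-3p was thus not shown.

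Other miRNAs with a role in cartilage were counted by list, beside the 1.95% called over all 564 miRNAs. A list linked to SOX9 and cartilage held 8 names, of which 6 were tested and 0 called (median log2 fold change -0.09, against 0.01 over all 564). The 6 log2 fold changes ranged from -0.21 to 0.61. Only miR-101a-3p was called of these 6 when IL-1β replicate 4 was left out (0.83, edgeR adjusted p = 0.0242), beside 3.54% of the 537 miRNAs then tested. With all libraries it was at 0.61 (edgeR adjusted p = 0.299). A list of miRNAs studied in chondrocytes or osteoarthritis held 18 names, of which 17 were tested and 1 was called (median log2 fold change 0.04). The called member was miR-21a-5p, a miRNA widely induced by inflammatory signals, which rose with IL-1β. It was at 355 ± 24.4 normalized CPM in vehicle libraries and 597 ± 92.9 in treated ones (SD, n = 4), a log2 fold change of 0.75 with an edgeR adjusted p of 3.58e-05. Over all 564 miRNAs, 17 (3.01%) had IL-1β libraries that all lay below the vehicle libraries. Of the members of these lists 1 did so, miR-193b-3p, at 1042 ± 104 with vehicle and 850 ± 19.3 normalized CPM with IL-1β. Its log2 fold change was -0.29 with an edgeR adjusted p of 0.0843, and it was named after its values were seen.

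The intronic position was also used as a grouping. Of the 564 tested names, 87.1% matched a mature miRNA in RefSeq, and 203 lay on the coding strand within an intron of a protein-coding gene (GENCODE vM21). Of these 203, 2 were called higher and 1 lower, beside 8 higher and 3 lower (1.95% in all) over the 564, and the median log2 fold change was -0.01, against 0.01 over all 564. Of the 190 tested when IL-1β replicate 4 was left out, 4 were called higher and 2 lower, with a median of 0.01. Over the 537 miRNAs of that fit 15 were called higher and 4 lower (3.54%), with a median of -0.01. The table of these libraries covers miRNAs, and the mRNA of the host gene Col27a1 was not analysed here.

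The miRNAs whose log2 abundance over the 8 libraries was most like that of each arm were named by Pearson's r, as a description with no test, among miRNAs averaging 50 counts or more. For miR-455-3p these were miR-410-3p (r = 0.911), miR-149-5p (0.909), miR-431-5p (0.886), miR-532-3p (0.843) and miR-574-3p (0.840), of 194 compared. For miR-455-5p they were miR-149-5p (r = 0.927), miR-667-3p (0.926), miR-574-3p (0.898), miR-296-5p (0.896) and miR-410-3p (0.851), of 195 compared. The lists were made for each arm separately and had 3 names in common, miR-149-5p, miR-410-3p and miR-574-3p. miR-455-3p itself stood in place 7 for the 5p arm (r = 0.830). The libraries share depth and composition across miRNAs, and the group difference and IL-1β replicate 4 enter these values. By Spearman's rho 0 of the 5 names for the 3p arm and 3 of the 5 for the 5p arm remained. When IL-1β replicate 4 was left out, 1 of the 5 for the 3p arm and 4 of the 5 for the 5p arm remained.

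The dependence of both arms on single libraries and on the choice of test was examined in 17 alternatives. The log2 fold change of miR-455-3p was below 0 in all 17, from -0.47 to -0.24, and 4 of the 17 called it. That of miR-455-5p was below 0 in all 17, from -0.45 to -0.07, and 0 of the 17 called it, with an edgeR unadjusted p of 0.254 with all libraries.

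**Figure D5:**
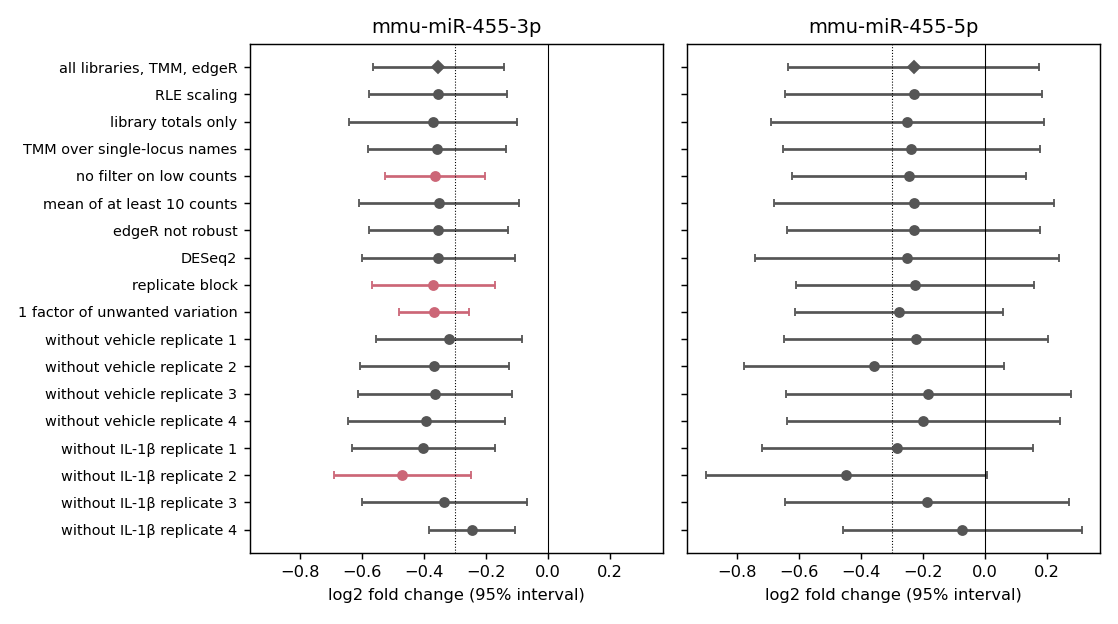
Log2 fold change of IL-1β against vehicle with its 95% interval (horizontal axes, same scale) for miR-455-3p (left) and miR-455-5p (right), with all libraries (diamond) and under 17 alternatives (circles). Red marks a call, the dotted line the threshold of -0.3: the intervals of miR-455-3p lie below 0 throughout, with 4 alternatives called, and those of miR-455-5p cross 0.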

How the data were processed

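miRNA-Seq counts of 8 libraries (vehicle and IL-1β, 4 each, grouped by the labels) were analyzed. The authors deposited raw read counts per mature miRNA. According to the methods and the submitters' processing notes, reads were trimmed with cutadapt, aligned to mm10 with STAR (2.4.2a in the notes, another version in the methods) and counted with featureCounts. The methods also describe a batch correction with RUVseq; the deposited columns hold whole numbers with unequal totals and were used as counts. The use of strand and the handling of multi-mapped reads are not given in the sources used here. The table also lists miRNA lengths. STAR defaults suit longer reads, ligation favors some sequences and no molecular identifiers were described, so that counts of different miRNAs, and of the arms of a hairpin, are not molar amounts and intervals cover counting error only.

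Names over 1 CPM in at least 4 libraries were tested with the edgeR 4.0.16 quasi-likelihood test (robust, TMM factors, group as the only term) in R 4.3.3, two-sided, with Benjamini-Hochberg adjustment over all tested names. Calls needed an adjusted p under 0.05 and an absolute log2 fold change over 0.3, thresholds that the study used for miRNAs (its methods give a 2-fold change). SE is the log2 fold change divided by the square root of F. Arm balance was tested in edgeR with 1 row per hairpin and terms for library, arm and arm by group. Ratios were compared by an exact permutation test, with a smallest p of 0.0286. Both fits were tested on simulated data (10 simulations each): over 564 miRNAs, 42.9% of those with a 1.5-fold change, 62.5% of those with a 2-fold change and 91.0% of those with a 1.5-fold change and at least 50 counts on average (miR-455-5p averaged 46.4) were called, and 42.9% of hairpins with an arm changed 2-fold over 142 hairpins. In each simulation far more miRNAs and hairpins were changed than were called in the data. Both groups had the same spread, and no library stood apart. These percentages may therefore be higher than for the data. RNAduplex was from ViennaRNA 2.7.2, and DESeq2 1.42.0 was an alternative.

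Named miRNAs were both arms, miR-140, miRNAs sharing a seed, neighbors in abundance and in arm ratio, the 5 most alike by r for each arm, called hairpins, and called members of the lists; miR-193b-3p and miR-101a-3p were added after their values were seen. Markers of other cell types were named from fixed lists as a check of the cells. The likeness, list and intronic values without IL-1β replicate 4 were added after seeing the data. The arms, lists and tests were chosen with earlier results of these data known.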

Additional observations from a re-analysis of the deposited data

Results flagged for a closer look

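In 12 groups of 4 libraries examined (the arms of miR-455 and miR-140 and the log2 ratios, in each treatment), 1 library lay far from the other 3: vehicle replicate 1 for miR-455-3p, at 5585 normalized CPM against 5053 to 5080. The gap to its nearest neighbor took 0.949 of the range of the group. The other libraries lay closer together (coefficient of variation 0.296%) than counting error alone would give (1.37% over the whole group). Chance flags about 1 in 20 such groups. Without this library the vehicle mean was 5063 normalized CPM and the log2 fold change of miR-455-3p was -0.32 (edgeR adjusted p = 0.230).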

How the results depend on the processing

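miR-455-3p was called, unlike with the main settings (-0.35), with no filter on low counts (-0.36, adjusted p = 0.00175), with a replicate block (-0.37, adjusted p = 0.0155) and with 1 factor of unwanted variation (-0.37, adjusted p = 3.27e-05). Without single libraries its log2 fold change ranged from -0.47 to -0.24 and its edgeR adjusted p from 0.0150 to 0.306, and by DESeq2 it was -0.35 (adjusted p = 0.0981). Over the 17 alternatives its adjusted p ranged from 3.27e-05 to 0.306, and that of miR-455-5p from 0.450 to 0.942. The number of miRNAs called was 11 in the main fit, 19 with the replicate block and 28 with the factor of unwanted variation, and 6 to 19 without single libraries (6 without vehicle replicate 4, 7 without vehicle replicate 2 or IL-1β replicate 3, and 19 without IL-1β replicate 4). Deviations of libraries with the same replicate number had correlations of 0.17, -0.34, 0.10 and -0.18 over 195 miRNAs. Only replicates 1 and 3 correlated best with their own number. Whether libraries with the same number share a culture or batch is not stated in the labels and was not tested. With the block miR-455-5p (-0.22, adjusted p = 0.840) and the arm balance (-0.11, adjusted p = 0.980) were still not called. Without single libraries the arm balance ranged from -0.17 to 0.01 in the edgeR model and from -0.16 to 0.05 in the log2 ratio, reversed in both without vehicle replicate 2 (0.0139 and 0.0462). The log2 ratio to miR-140-3p differed by -0.31 to -0.14 without single libraries. Of the 5 miRNAs most like miR-455-3p, 0 remained by Spearman's rho 2 by deviations from the group means and 1 without IL-1β replicate 4 (an alternative chosen after seeing the data). For miR-455-5p 3, 1 and 4 remained. The cause of these differences was not tested. The 5p arm had 23 to 86 counts a library, and the values of this arm and of the arm balance have wide intervals.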
